A study of Homo sapiens with 4 samples.

Results

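The axon guidance ligands and receptors were examined as one set of 68 protein-coding genes among the 58735 genes of the expression tables. The rule that picked them uses the gene symbol and no measured value, but the set was chosen with earlier results of these data known. The set held 20 semaphorins, 8 ephrins, 3 slits and 4 netrins as ligands, and 9 plexins, 2 neuropilins, 14 Eph receptors, 4 robos and 4 UNC5 receptors as receptors. RNA was measured in U251 and U87, which are established human glioblastoma cell lines, and the 4 libraries were U251 Control, U251 Bru, U87 Control and U87 Bru, 1 for each condition. Bru is brusatol, a plant compound of the quassinoid class, and it was given at the IC50 for 48 h, whereas the labels describe the other libraries as control only. The concentration in these libraries is not stated. The authors' viability time courses used different concentrations in U251 and U87, so a common dose cannot be assumed. A line is a culture of tumor cells alone, without the stroma, vessels or neurons of a brain tumor. None of the differences given here could be checked in replicates.

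Axon guidance cues are read by neighbouring cells as signals to move on, to turn away or to stay. Semaphorins act through plexins, and the secreted class 3 members need a neuropilin as co-receptor. Ephrins sit in the membrane and engage Eph receptor tyrosine kinases on the touching cell, slits repel through robos, and netrins attract through DCC or repel through UNC5 receptors. In glioblastoma these families are known for their part in invasion, in the sorting of tumor cells from normal brain and in vessel growth.

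The level of a gene is given as FPKM, the fragments of a gene divided by gene length and library size, and its precision by the number of reads behind it. The libraries held 17083896 to 21453561 reads on genes, and the 68 genes took 0.484%, 0.309%, 0.203% and 0.182% of them. Lists of 4 values follow the order U251 Control, U251 Bru, U87 Control and U87 Bru throughout. A log2 ratio was taken on FPKM + 0.1. A gene was tested when its FPKM averaged at least 1 over the 4 libraries, which left 12949 genes, and it was called higher or lower when its log2 ratio was above 1 or below -1. Of the 68 guidance genes 37 passed this filter, 19 ligands and 18 receptors. Of these, 8 had under 1 FPKM in both U87 libraries (EFNA1, EFNA3, EFNB3, EPHA3, EPHA4, EPHA5, NTN1 and UNC5C) and 1, UNC5B, had under 1 FPKM in both U251 libraries. These passed through one line only, so the counts that compare the lines are descriptions of the genes that passed. The interval given after a log2 ratio is the 95% exact counting interval of the ratio without the 0.1, and it covers counting error only. The culture label was checked against marker genes. VIM lay between 606 and 701 FPKM in the 4 libraries. SOX2 had 128.8 and 91.2 FPKM in U251 Control and U251 Bru but 0 and 0.0457 FPKM in U87 Control and U87 Bru, and the astrocyte marker GFAP stayed at or below 2.42 FPKM throughout. The 11 markers of leukocytes, endothelium, neurons and epithelium summed to 2.70 to 13.1 FPKM, and 10 of them stayed at or below 0.506 FPKM in every library, with CD3E at 0 throughout. The remaining one was the neuronal gene MAP2, at 12.5, 5.19, 2.36 and 1.33 FPKM in the 4 libraries. Its part in the results was not tested.

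Brusatol is known as an inhibitor of NRF2, the transcription factor that binds the antioxidant response element. The core of this element, TGACNNNGC on either strand, was therefore looked up in the RefSeq promoter windows of GRCh38.p14, which reach from 250 bases before a gene's start site to 50 bases after it. Windows were found for 58 of the 68 genes, 90 windows in all, and 10 of them (11.1%) held the core, compared with 13.3% of all 35116 windows. The E-box CACGTG was present in 4.44% of the windows of the guidance genes and in 7.26% of all windows, and the core of the sterol element, TCACNCCAC, in 2.22% and 1.13%, each motif being counted on both strands and separately from the others. The median GC content was 66.2% in the windows of the guidance genes and 62.7% in those of protein-coding genes. Of the 14 genes called in either line after Bru, 9 had a window and 5 (EFNB3, NTN1, SEMA3A, SEMA6B and UNC5B) had none. Of the 9, EFNB2, SEMA3B and SLIT2 held the antioxidant core, and their windows are printed because the genes differed in response: EFNB2 was called lower in U251, SEMA3B lower in U87 and SLIT2 higher in U87. The sequences run 5′ to 3′ on the strand of the gene, with the core in capitals.
EFNB2: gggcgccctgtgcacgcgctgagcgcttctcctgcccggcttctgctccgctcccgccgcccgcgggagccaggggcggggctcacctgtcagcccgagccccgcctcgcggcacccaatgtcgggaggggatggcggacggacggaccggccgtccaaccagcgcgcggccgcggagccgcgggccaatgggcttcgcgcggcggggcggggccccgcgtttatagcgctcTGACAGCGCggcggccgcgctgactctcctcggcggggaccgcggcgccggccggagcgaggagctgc
SEMA3B: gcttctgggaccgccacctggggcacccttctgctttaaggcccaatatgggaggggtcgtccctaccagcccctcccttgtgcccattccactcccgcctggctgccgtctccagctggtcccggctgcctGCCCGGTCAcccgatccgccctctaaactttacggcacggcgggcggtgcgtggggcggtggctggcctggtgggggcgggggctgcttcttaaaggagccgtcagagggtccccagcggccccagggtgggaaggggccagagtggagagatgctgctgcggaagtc
SLIT2: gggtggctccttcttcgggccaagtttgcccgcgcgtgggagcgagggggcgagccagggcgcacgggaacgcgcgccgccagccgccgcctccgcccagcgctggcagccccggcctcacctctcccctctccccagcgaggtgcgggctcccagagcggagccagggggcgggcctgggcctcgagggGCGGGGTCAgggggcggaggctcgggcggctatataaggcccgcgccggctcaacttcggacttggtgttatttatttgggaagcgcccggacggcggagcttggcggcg
The EFNB2 window is chr13:106535613-106535912 on the minus strand, the SEMA3B window, the only one of its 5 windows with the core, chr3:50267402-50267701 on the plus strand and the SLIT2 window chr4:20251655-20251954 on the plus strand. Counted from the start site, the core lies at -18 to -10 in EFNB2, at -118 to -110 in SEMA3B and at -60 to -52 in SLIT2, on the gene's own strand in EFNB2 and on the other strand in SEMA3B and SLIT2. The RefSeq start of SLIT2 lies before the start of the gene in the tables, 20253260. These are matches of letters, and binding was not measured.

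The families differed widely in level, and in most of them 1 or 2 genes held the greater part of the FPKM. Summed over the 68 genes, the FPKM were 721, 405, 288 and 241 in the 4 libraries. The receptors added up to 452, 263, 157 and 151 FPKM and the ligands to 269, 142, 131 and 89.6 FPKM. The highest of all was EPHA2, a receptor for ephrin-A ligands that is often abundant in glioblastoma, with 170, 81.2, 38.9 and 38.5 FPKM. Among the ephrins, EFNB2, the membrane-bound ligand of EPHB4, held 75.0%, 62.3%, 59.7% and 60.1% of the family's FPKM. Among the plexins, PLXNB2, the receptor of SEMA4C, held 36.0%, 40.1%, 39.0% and 49.1%. The leading semaphorin depended on the line. SEMA3C, a secreted ligand of NRP1 and NRP2, held 46.6% and 49.3% of the semaphorin FPKM in U251 Control and U251 Bru, whereas SEMA7A, which is anchored in the membrane by a lipid and binds plexin C1 and integrins, held 40.8% and 32.2% in U87 Control and U87 Bru. The neuropilins, co-receptors that also bind VEGF, were split in a similar way. NRP2 held 61.8% and 61.5% of the neuropilin FPKM in the U251 libraries, and NRP1 held 77.6% and 77.5% in the U87 libraries.

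**Figure D1:**
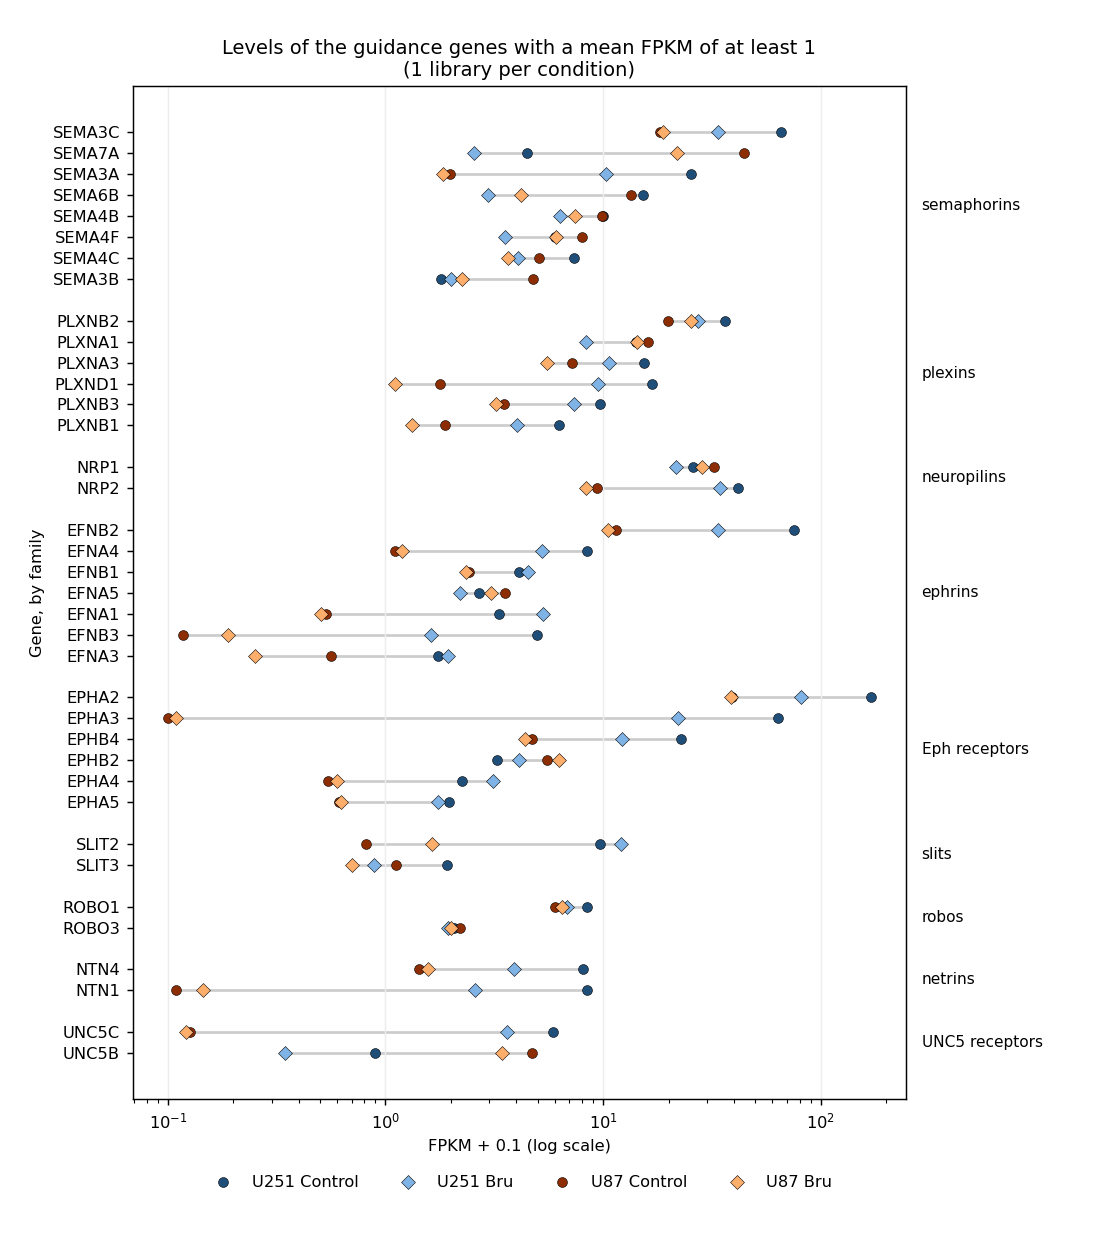
FPKM + 0.1 on a log scale (x axis) for the 37 guidance genes that averaged at least 1 FPKM, grouped by family, with 1 point per library, circles for Control and diamonds for Bru, and a grey line over the range of the 4 values. Points at nearly equal values cover each other, as for EPHA2 in U87. EPHA2 lies furthest to the right with 170 FPKM in U251 Control, and EPHA3, EFNB3, NTN1 and UNC5C span the widest ranges because both U87 libraries are close to 0.

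The first question was how the lines differ without Bru. In U87 Control 21 of the 37 genes that passed the filter were called lower than in U251 Control, beside 16.0% of all genes tested, and 3 were called higher, beside 14.5%. Of the 37 genes 28 had a log2 ratio below 0, beside 50.4% of all genes tested. The median log2 ratio of U87 Control to U251 Control was -1.63 over the guidance genes, -0.01 over all genes tested and -0.07 over the 4283 tested genes of like length. Over the guidance genes it was -0.78 without a filter and -1.01 with a pseudocount of 1 in place of 0.1. The lowest family medians were -4.39 for the netrins, -2.63 for the ephrins, -2.18 for the slits and -2.08 for the Eph receptors. The others were -1.57 for the UNC5 receptors, -1.28 for the plexins, -0.91 for the neuropilins, -0.20 for the robos and -0.10 for the semaphorins. Of the semaphorins 2 were called higher and 2 lower. The medians of the netrins, slits, UNC5 receptors, neuropilins and robos rest on 2 genes each. Every netrin and Eph receptor that passed the filter was called lower, with the exception of EPHB2, an ephrin-B receptor, which had a log2 ratio of 0.76 (interval 0.65 to 0.91). However, NTN1, EPHA3, EPHA4, EPHA5 and UNC5C, and among the ephrins EFNA1, EFNA3 and EFNB3, passed the filter through U251 only. UNC5B passed it through U87 only. The calls of these genes, and the medians of the netrins, ephrins, Eph receptors and UNC5 receptors, thus follow in part from the filter.

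EPHA3, an ephrin-A receptor, was the widest difference. It had 8941, 2729, 0 and 1 reads, or 63.9, 22.1, 0 and 0.00861 FPKM, so that both U251 libraries were high and both U87 libraries were at or next to 0. Against a floor of 3 reads it was at least 2568-fold higher in U251 Control than in U87 Control. NTN1, the founding secreted netrin, had 1113, 292, 1 and 5 reads. EFNB3, a membrane-bound ephrin-B, had 328, 91, 1 and 5 reads, and UNC5C, a netrin receptor, had 1292, 700, 5 and 4 reads. For each of these genes the U87 libraries held so few reads that only the line difference, and no difference between the U87 libraries, was detectable. PLXNA4, a receptor for class 6 semaphorins that did not pass the filter, had 474, 148, 1 and 1 reads.

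Other genes were present in both lines at unequal levels. EPHA2 was 4.37-fold higher in U251 Control than in U87 Control (log2 ratio -2.13, interval -2.19 to -2.07), and EFNB2 was 6.58-fold higher (-2.71, interval -2.81 to -2.62). SEMA3A, the secreted repellent that acts through NRP1, had 25.2, 10.2, 1.87 and 1.74 FPKM. It was 13.5-fold higher in U251 Control (-3.68, interval -3.92 to -3.59). PLXND1, the receptor of SEMA3E, had 3421, 1695, 297 and 170 reads and a log2 ratio of -3.24 (interval -3.49 to -3.14). NRP2 had 41.7, 34.4, 9.33 and 8.24 FPKM and a log2 ratio of -2.15 (interval -2.23 to -2.10), while NRP1 had 25.8, 21.6, 32.2 and 28.4 FPKM and a log2 ratio of 0.32 (interval 0.27 to 0.37). The neuropilins thus lay on opposite sides of 0.

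The genes called higher in U87 Control were SEMA7A, UNC5B and SEMA3B. SEMA7A had 4.38, 2.46, 44.2 and 21.8 FPKM and was 10.1-fold higher in U87 Control (log2 ratio 3.31, interval 3.18 to 3.50). UNC5B, a netrin receptor known as a dependence receptor, had 0.795, 0.245, 4.60 and 3.34 FPKM (2.39, interval 2.24 to 2.84). The UNC5 receptor with the highest level was thus UNC5C in U251 and UNC5B in U87. SEMA3B, a secreted semaphorin, had 1.69, 1.90, 4.68 and 2.14 FPKM (1.41, interval 1.23 to 1.71). Below the filter, EPHB1, an ephrin-B receptor, had 0, 1, 144 and 121 reads and was at least 55.7-fold higher in U87 Control against the floor of 3 reads. SEMA5A, a membrane semaphorin with thrombospondin repeats, had 22, 9, 338 and 137 reads (log2 ratio 3.14). The log2 ratio of SEMA5A is on FPKM + 0.1 and understates the counting interval of 3.53 to 4.85, as for any gene of low level.

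**Figure D2:**
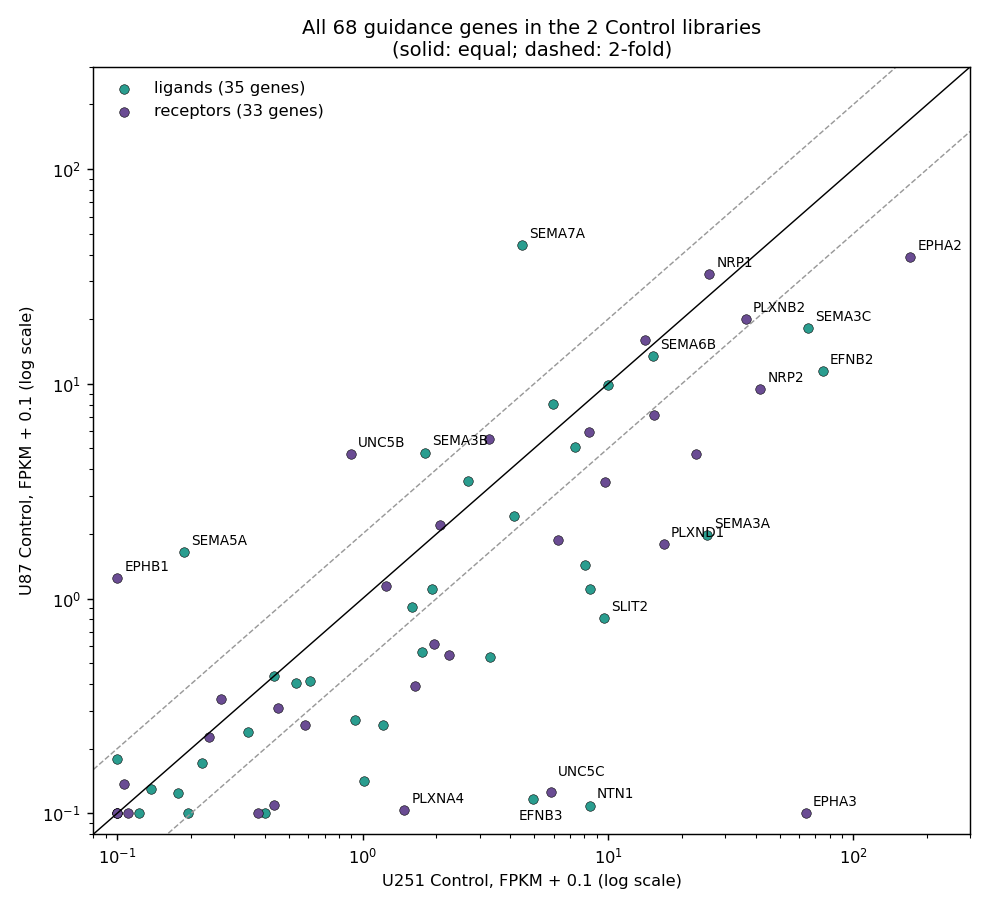
FPKM + 0.1 in U251 Control (x axis) and in U87 Control (y axis), both on log scales, for all 68 guidance genes, with ligands and receptors in different colors. The solid line marks equal levels and the dashed lines a ratio of 2. More genes lie below the lower dashed line than above the upper one, with EPHA3, NTN1, UNC5C and EFNB3 at the bottom and SEMA7A, UNC5B, SEMA5A and EPHB1 at the upper left.

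The second question was how U251 Bru differed from U251 Control. None of the 37 genes was called higher in U251 Bru, beside 3.36% of all genes tested, and 10 were called lower, beside 5.44%. They were the ligands SEMA6B, NTN1, EFNB3, SEMA3A, EFNB2, SLIT3 and NTN4 and the receptors EPHA3, UNC5B and EPHA2. A log2 ratio below 0 was found for 30 of the 37 genes, beside 52.1% of all genes tested. The median log2 ratio was -0.69 over the guidance genes, -0.03 over all genes tested and -0.08 over the tested genes of like length, of which 4.13% were called lower. With a pseudocount of 1 in place of 0.1, NTN4, SLIT3 and UNC5B were no longer called and 7 genes were. With 1 library per condition, the library and the treatment cannot be told apart. In RNA of a whole culture, fewer cells that carry a transcript and less transcript per cell cannot be told apart either. The 7 glial and neural progenitor markers summed to 1028 FPKM in U251 Control and 800.3 FPKM in U251 Bru, with 125 and 50.6 FPKM for NES and 128.8 and 91.2 FPKM for SOX2 in U251 Control and U251 Bru, and their part in the result was not tested.

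Among the ligands, SEMA6B, a membrane-bound semaphorin that signals through class A plexins, stood lowest. It had 15.1 FPKM in U251 Control and 2.87 FPKM in U251 Bru, from 1399 and 235 reads, and was 5.26-fold lower (log2 ratio -2.36, interval -2.60 to -2.19). NTN1 had 8.31 and 2.47 FPKM (-1.71, interval -1.94 to -1.56). NTN4, a netrin that binds laminins of the basement membrane, had 7.99 and 3.81 FPKM (-1.05, interval -1.27 to -0.87), so that both netrins that passed the filter were called lower. EFNB3 had 4.85 and 1.52 FPKM (-1.61, interval -2.02 to -1.33). EFNB2, the leading ephrin, had 75.0 and 33.7 FPKM from 7897 and 3136 reads (-1.15, interval -1.21 to -1.09). Its exons share 26.2% of their bases with an antisense gene, AL138689.2, and without strand the reads of the pair cannot be told apart. The other ephrins that passed the filter lay on both sides of 0. EFNA4 had a log2 ratio of -0.70 (interval -1.04 to -0.38) and EFNA5 one of -0.29 (interval -0.56 to -0.05), EFNA3 and EFNB1 had 0.15 and 0.13 with intervals that held 0, and EFNA1 had 3.21 and 5.19 FPKM (0.67, interval 0.40 to 0.98).

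The secreted semaphorins were divided as well. SEMA3A was called lower (log2 ratio -1.30, interval -1.39 to -1.23), and SEMA3C, with 65.5 and 33.7 FPKM, lay just short of the limit (-0.95, interval -1.01 to -0.90). SEMA3B had a log2 ratio of 0.16, and its interval of -0.12 to 0.45 held 0. Of the 8 semaphorins that passed the filter, 7 had a log2 ratio below 0, and the family's summed FPKM was 140.6 in U251 Control and 68.4 in U251 Bru. The slits were divided too. SLIT3 had 1.81 and 0.783 FPKM (-1.11, interval -1.45 to -0.98), while SLIT2 had 9.57 and 11.9 FPKM (0.32, interval 0.23 to 0.41), both being secreted ligands of the robos.

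Among the receptors, the Eph family differed most in summed FPKM. EPHA3 had 63.9 and 22.1 FPKM from 8941 and 2729 reads (log2 ratio -1.53, interval -1.60 to -1.47), and EPHA2 had 170 and 81.2 FPKM from 14834 and 6262 reads (-1.06, interval -1.11 to -1.02). EPHB4, the receptor of EFNB2, had 22.8 and 12.2 FPKM from 3077 and 1450 reads (-0.90). EPHA4 and EPHB2 lay on the other side of 0, with log2 ratios of 0.46 (interval 0.27 to 0.69) and 0.33 (interval 0.21 to 0.48). The summed FPKM of the Eph receptors was 265 in U251 Control and 126 in U251 Bru. UNC5B was called lower from few reads, 114 and 31 (-1.38, interval -2.32 to -1.12), and UNC5C had 5.77 and 3.53 FPKM (-0.69, interval -0.84 to -0.57).

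In summed FPKM the plexins and neuropilins were lower by less than the Eph receptors, with Bru to Control ratios of 0.67 and 0.83 beside 0.47. The median log2 ratios did not follow this order, at -0.59 for the plexins, -0.27 for the neuropilins and -0.54 for the Eph receptors. None of the 6 plexins that passed the filter was called, beside 3.36% of all genes tested called higher and 5.44% lower. Their log2 ratios lay between -0.83 for PLXND1 and -0.41 for PLXNB3, all below 0. Reads of PLXNB3 can be shared with SRPK3, since 20.4% of its exon bases belong to exons of that gene on the same strand. PLXNB2 had 36.4 and 27.1 FPKM (-0.42, interval -0.48 to -0.36). NRP1 and NRP2 had log2 ratios of -0.26 (interval -0.31 to -0.20) and -0.28 (interval -0.32 to -0.24). ROBO1, the slit receptor with the highest level here, had 8.30 and 6.72 FPKM (-0.30, interval -0.41 to -0.20). These plexins, the neuropilins and ROBO1 were lower in U251 Bru by a smaller factor than SEMA6B, SEMA3A, NTN1 or EPHA3. The latter are among the genes called lower in this same comparison, so they do not stand for the other ligands and receptors. The ligands that passed the filter and were not called ranged from -0.95 for SEMA3C to 0.67 for EFNA1. Differences between genes were not tested.

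The third question was how U87 Bru differed from U87 Control. Of the 37 genes 1 was called higher in U87 Bru, beside 1.92% of all genes tested, and 4 were called lower, beside 1.41%. A log2 ratio below 0 was found for 25 of the 37 genes, beside 56.7% of all genes tested. The median was -0.12 over the guidance genes, -0.04 over all genes tested and -0.05 over the tested genes of like length, of which 0.304% were called lower. The genes called lower were SEMA6B, EFNA3, SEMA3B and SEMA7A, all of them ligands, and the gene called higher was SLIT2. However, 8 of the 37 genes, EFNA3 among them, had under 1 FPKM in both U87 libraries and passed the filter through U251 only. With the filter on the U87 libraries alone, 30 guidance genes remained, without EFNA3, and their median was -0.17. Of these 1 was called higher and 4 lower, beside 227 and 169 of 12591 genes tested. With a pseudocount of 1 in place of 0.1, SEMA6B alone was still called, and SEMA7A also lost its call when the median of all genes was set to 0.

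SEMA6B had 13.4 and 4.09 FPKM in the U87 libraries, from 1067 and 314 reads, and was 3.27-fold lower (log2 ratio -1.69, interval -1.90 to -1.53). SEMA7A, the leading semaphorin of U87, had 44.2 and 21.8 FPKM from 3036 and 1443 reads (-1.02, interval -1.11 to -0.93). SEMA3B had 4.68 and 2.14 FPKM (-1.09, interval -1.37 to -0.89). Summed over the semaphorins, the U87 libraries had 108.4 and 67.8 FPKM. SLIT2 had 0.712 and 1.53 FPKM from 125 and 259 reads and was 2.15-fold higher (1.01, interval 0.79 to 1.42), which is just past the limit. The call of EFNA3, an ephrin anchored by a lipid, rests on 16 and 5 reads (-1.17, interval -3.43 to -0.11). It is uncertain also because 44.7% of the exon bases of EFNA3 lie in exons of AL691442.1 on the same strand.

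The receptors that passed the filter had log2 ratios of U87 Bru to U87 Control between -0.70 for PLXND1 and 0.34 for PLXNB2. EPHA2 had 38.9 and 38.5 FPKM (log2 ratio -0.01, interval -0.09 to 0.06), and the summed FPKM of the Eph receptors was 51.5 in each U87 library. None of the 18 receptors that passed the filter was called, beside 1.92% of all genes tested called higher and 1.41% lower. At these shares the absence of a call among 18 genes does not set the receptors apart. EFNB2 and SEMA3C, which stood lower in U251 Bru, had 11.4 and 10.5 FPKM (-0.12, interval -0.25 to 0.01) and 18.1 and 18.8 FPKM (0.05, interval -0.04 to 0.14) in U87. The receptors furthest from 0 were PLXND1 with -0.70 (interval -1.03 to -0.47), PLXNB1, a receptor of SEMA4D, with -0.50 (interval -0.80 to -0.28) and UNC5B with -0.45 (interval -0.65 to -0.27). SLIT3 had 1.01 and 0.604 FPKM (-0.66, interval -1.04 to -0.45).

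SEMA6B was the only guidance gene that passed the filter and was called in both lines. The share of all genes tested that was called in both lines was not computed, so this count has nothing to be set beside. SEMA6B is described here for its values. Its levels were close in the Control libraries, with a log2 ratio of U87 Control to U251 Control of -0.17 (interval -0.29 to -0.06), and both Bru libraries lay below both Control libraries. SEMA6B lies on chromosome 19 from 4542593 to 4559808 on the minus strand (GENCODE release 29, GRCh38, the coordinates of the tables), has a length of 4412 bases in the tables and is ENSG00000167680. For EFNB2, SEMA3A, SEMA3C, EPHA2 and NTN4, the log2 ratio of Bru to Control in U87 minus that in U251 was 1.03, 1.20, 1.01, 1.05 and 1.18. For NRP2 and PLXND1 it was 0.10 and 0.13. For SEMA3B and EFNA3, which were called lower in U87 only, it was -1.25 and -1.32, that of EFNA3 from 16 and 5 reads in U87. These differences between the lines were not tested, since an interaction cannot be tested with 1 library per condition. Between the Bru libraries, 19 of the 37 genes were called lower in U87 Bru than in U251 Bru, beside 15.0% of all genes tested, and 2, SEMA7A and UNC5B, were called higher, beside 14.3%. The median was -1.07 over the guidance genes and -0.02 over all genes tested. This comparison shares its libraries with those of Bru against Control, so that the counts are not independent of them.

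The other 31 guidance genes did not pass the filter, and their highest mean was 0.915 FPKM. Of the 68 genes, 63, 64, 59 and 63 had at least 1 read in the 4 libraries, and 7, 9, 14 and 14 had at most 3 reads. EPHA10 had no read in any library, and EPHA8, EPHB6 and UNC5A had at most 2 reads in each. Past the same limits without the filter, EPHB3, an ephrin-B receptor, was higher in U251 Bru with 46 and 99 reads (log2 ratio 1.13, interval 0.77 to 1.82). PLXNA4 with 474 and 148 reads (-1.33, interval -1.78 to -1.23), SEMA4D with 443 and 164 reads (-1.13, interval -1.52 to -0.99) and SEMA6A with 254 and 79 reads (-1.30, interval -1.89 to -1.14) were lower there. PLXNA4 is a receptor of SEMA6A and SEMA6B. All 3 are named because they lay past the limit in this comparison, so their shared direction is no separate result. The other class 6 semaphorins, SEMA6C and SEMA6D, had log2 ratios of -0.46 and 0.28 in U251, with intervals that held 0. In U87 SEMA5A was lower after Bru with 338 and 137 reads (-1.13, interval -1.55 to -0.96).

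A ligand can act within the culture only where a receptor for it is also made, so 32 textbook pairs of ligand and receptor were followed, with a pair counted as present when both partners had at least 1 FPKM. The list does not hold every partner, with SEMA7A paired only with PLXNC1 and EPHA2 only with EFNA1. An absent pair therefore does not show that a ligand lacked any receptor, and the counts depend on the pairs chosen. The counts were 21, 16, 10 and 9 in the 4 libraries, and 7 pairs were present in all 4 libraries. These 7 were SEMA3A with NRP1, SEMA3B with NRP2, SEMA3C with NRP1 and with NRP2, SEMA4C with PLXNB2, EFNB1 with EPHB2 and EFNB2 with EPHB4. The pairs EFNA1 with EPHA2, EFNA5 with EPHA3, EFNA5 with EPHA4 and EPHA5, EFNB2 with EPHA4, EFNB3 with EPHB2 and NTN1 with UNC5C were present in both U251 libraries and in neither U87 library. NTN4 with UNC5B was present in both U87 libraries only. In U251, SEMA6A with PLXNA2 and with PLXNA4, SEMA6B with PLXNA4, SEMA4D with PLXNB1, SLIT3 with ROBO1 and NTN1 with UNC5D were present in Control and not in Bru, and EFNB1 with EPHB3 was present in Bru only. SEMA6A had 1.11 and 0.389 FPKM there and PLXNA4 1.38 and 0.488 FPKM, so that the pair of the 2 had both partners under the limit in Bru. In U87, SLIT3 with ROBO1 and SEMA5A with PLXNB3 were present in Control only, and SLIT2 with ROBO1 in Bru only. With FPKM turned into TPM the counts were 26, 23, 16 and 16. The count reads levels of RNA against a limit, and contact or signaling was not measured.

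Several of the genes lie next to each other, and neighbours did not always have like ratios. On chromosome 7, SEMA3A (83955777 to 84492724) had a log2 ratio of -1.30 in U251, whereas SEMA3D, which starts 502829 bases further on, had -0.15 from 154 and 121 reads. On chromosome 1, EFNA4, EFNA3 and EFNA1 lie within the stretch from 155063731 to 155134857 and had log2 ratios of -0.70, 0.15 and 0.67 in U251. On chromosome 3, ROBO2 had 96, 43, 0 and 0 reads, while its neighbour ROBO1 had 1894, 1355, 1158 and 1212 reads. ROBO1 was thus present in both lines, and ROBO2 had reads in U251 only.

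The other genes of the pathway were followed through a list of 80 co-receptors, further cues, processing enzymes and cytoplasmic effectors, of which 63 passed the filter. In U251 Bru none was called higher and 4 (6.35%) were called lower, which is near the 5.44% of all genes tested, and the median was -0.26. The 4, named after their values were seen, were RGMA, a repellent cue that binds neogenin, with 3.18 and 0.747 FPKM (log2 ratio -1.95, interval -2.33 to -1.86), NTNG1, a netrin anchored in the membrane, with 5.54 and 2.54 FPKM (-1.09), DPYSL5 with 5.87 and 2.03 FPKM (-1.49) and DPYSL2, with 16.4 and 6.62 FPKM (-1.30). DPYSL2 and DPYSL5 belong to the collapsin response mediator proteins, which act on the cytoskeleton. In U87 Bru none of the 63 was called in either direction, beside 1.92% higher and 1.41% lower over all genes tested, and the median was -0.07. Below the filter, DCC, the netrin receptor, had 0, 0, 134 and 36 reads and a log2 ratio of -1.37 (interval -2.42 to -1.30) in U87, and RND1 had 17 and 48 reads and a log2 ratio of 1.31 in U251. In U251 the median log2 ratio was -0.48 over the 18 guidance receptors and -0.81 over the 19 guidance ligands that passed the filter. Among the other pathway genes it was -0.19 over 51 cytoplasmic effectors, -0.66 over 7 co-receptors and further cues and -0.69 over 5 processing enzymes. Low medians were thus not particular to the guidance ligands and receptors. In U87 the medians were -0.11 and -0.12 for the guidance receptors and ligands. They were -0.08, 0.04 and -0.26 for the effectors, the co-receptors and further cues, and the processing enzymes.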

How the data were processed

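RNA of U251 and U87, Control and Bru, was sequenced as 4 paired-end libraries made with the NEB Next Ultra kit, which does not mark strand. What the authors deposited are FPKM values and gene lengths, 1 table per library. The submitters' processing notes name HISAT2 2.0.5, StringTie 1.3.3b, featureCounts 1.5.0-p3 and DESeq2 1.16.1 without their roles, and hg18 as the build, whereas 58690 of the 58735 genes and all 68 guidance genes carry the coordinates of GENCODE release 29 on GRCh38. The strand setting of the counting is not given in the sources used here.

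FPKM times gene length was a whole multiple of 1 step per library for 100% of the values (within 0.001 reads), which returned the reads and library sizes of 20974002, 18533374, 18070193 and 17406238 (U251 Control, U251 Bru, U87 Control, U87 Bru). At this depth 3 reads, the floor, correspond to 0.143 to 0.172 FPKM in a gene of 1 kilobase. Log2 ratios were taken on FPKM + 0.1 for genes with a mean of at least 1 FPKM, and genes past 1 or -1 were called. No p-value was computed, since each condition has 1 library. Intervals are exact (Clopper-Pearson) at 95% and cover counting error only, as do folds against the floor. Genes of like length are those of 5019 to 9738 bases, the middle range of the guidance genes that passed the filter, and were set beside them after seeing the data.

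The guidance genes, the gene lists and the pairs were chosen with earlier results of these data known. Genes with values in every library are those called after Bru in either line, the highest and the most changed of each family, and the 5 furthest apart in each direction between the Control libraries. Others named in the text were chosen after their values were seen. Alternatives were another pseudocount (1 or 0.01), another filter, rescaling to a median of 0 or to TPM, and calls only where the interval excludes 0. Scripts were tested on simulated data and ran in Python 3.11.15 with numpy 2.4.6, pandas 2.3.3, scipy 1.17.1 and matplotlib 3.10.9.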

Additional observations from a re-analysis of the deposited data

Results flagged for a closer look

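PLXNB2, the leading plexin, lay on opposite sides of 0 in the lines after Bru, and neither counting interval held 0. It had 36.4 and 27.1 FPKM in U251 Control and U251 Bru (log2 ratio -0.42, interval -0.48 to -0.36) and 19.9 and 25.2 FPKM in U87 Control and U87 Bru (0.34, interval 0.27 to 0.42). The log2 ratio in U87 minus that in U251 was 0.76. ROBO1 showed the same pattern with a smaller difference of 0.42, from -0.30 (interval -0.41 to -0.20) in U251 and 0.12 (interval 0.002 to 0.24) in U87. The difference between the lines was not tested for either gene, since each condition has 1 library.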

How the results depend on the processing

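Of 126 counts and medians under the alternatives 94 stayed within the margin used for a close value and 32 moved. The margin was wide, since a median between the Control libraries of -1.01 in place of -1.63 counted as close. Counts cannot change sign, and every median stayed below 0. No paired analysis was possible because each condition has 1 library and the labels carry no replicate numbers. A pseudocount of 1 left 0 genes called higher and 1 lower (SEMA6B) in U87 Bru, ending the calls of SLIT2, SEMA7A, SEMA3B and EFNA3, and it ended those of NTN4, SLIT3 and UNC5B in U251. A pseudocount of 0.01 gave 3 and TPM 2 genes higher in U87 Bru, beside 327 and 292 of all 12949 genes tested. SEMA7A also lost its call when the median was set to 0. A minimum mean of 5 FPKM left 19 guidance genes, with 5 lower in U251 Bru, 2 lower in U87 Bru, 11 lower and 1 higher in U87 Control against U251 Control, and 9 lower and 1 higher in U87 Bru against U251 Bru. Without a filter 1 gene was higher in U251 Bru, 5 were higher between the Control libraries and 4 higher between the Bru libraries, the same counts as with a minimum of 0.1 FPKM, and 29 were lower between the Bru libraries. The medians without a filter were -0.46 in U251 Bru, -0.78 between the Control libraries (-1.01 there with a pseudocount of 1) and -0.59 between the Bru libraries. The last of these was -0.84 with a pseudocount of 1, -1.01 with a minimum of 0.1 FPKM or a filter on the libraries compared, -0.94 with a minimum of 5 FPKM and -1.18 with TPM, which moved the median of all genes to -0.12. TPM raised the pairs present to 16 in each U87 library, and to 26 and 23 in U251 Control and U251 Bru. Pathway genes called were 1 in U251 with a minimum of 5 FPKM, and 1 in U87 with a pseudocount of 0.01, no filter, a minimum of 0.1 FPKM or TPM. Over all genes, 435 were higher and 705 lower in U251 Bru, against 2424 and 2539 without a filter, 1782 and 1945 with a minimum of 0.1 FPKM, 150 and 323 with a minimum of 5 FPKM, and 197 and 419 with a pseudocount of 1. In U87 Bru the main 249 and 183 became 2531 and 1804, 1627 and 1174, 38 and 45, and 113 and 77 in the same order, and 117 and 105 where the interval had to exclude 0. In U87 Control against U251 Control the main 1873 and 2069 became 5283 and 5257 without a filter, 4400 and 4445 with a minimum of 0.1 FPKM and 855 and 866 with a minimum of 5 FPKM, and between the Bru libraries 1846 and 1940 became 5618 and 4948, 4511 and 4108, and 818 and 815. The genes tested numbered 12949 in the main setting and 31871 without a filter. With a minimum of 0.1 or 5 FPKM they numbered 22194 and 7578. The guidance genes among them were 37, 67, 56 and 19 in this order. The cause of these shifts was not tested beyond the number of genes that each filter admits. Depth limits EFNA3, EFNB3, NTN1, UNC5C and EPHA3 in U87, each with at most 16 reads per library.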
